A study of Mus musculus with 6 samples.

Results

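Calponins, transgelins, cysteine and glycine-rich proteins (CSRP), leiomodin 1 and smoothelin are actin-associated proteins, many of them best known from smooth muscle. The 9 genes described here, Cnn1, Cnn2, Cnn3, Tagln, Tagln2, Csrp1, Csrp2, Lmod1 and Smtn, were taken by gene symbol from count tables that list 55377 genes. The set was chosen on results of these same libraries, in which Cnn1, Cnn2 and Csrp1 had been seen among the largest falls, and their relatives were added by family. Their change between the treatments is therefore a description, and the calls below are no independent evidence of it. Primary chondrocytes, the matrix-making cells of mouse articular cartilage, were transfected with control siRNA (3 libraries) or Irf1 siRNA (3 libraries), and total RNA was taken 36 h later. All 6 libraries come from primary culture and from transfected cells, the Irf1-knockdown group differs from the control group in the siRNA, and the labels name neither the strain, age and sex of the mice nor the siRNA sequences. Irf1 is the gene of interferon regulatory factor 1, which interferons induce and which acts on transcription. Whether replicates were separate cultures or animals is not labelled, so every p-value is about the spread of these libraries only, which may be technical.

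Calponins bind actin filaments and tropomyosin and restrain actomyosin, the motor of contraction. Transgelins share their actin-binding fold, CSRP proteins are LIM-domain adaptors that bind alpha-actinin and zyxin along actin filaments, leiomodins nucleate actin filaments, and smoothelin binds the filaments of contractile cells. Cnn1, Tagln, Csrp1, Csrp2, Lmod1 and Smtn are best known from smooth muscle, whereas Cnn2, Cnn3 and Tagln2 are found in many cell types. Many genes of this kind are controlled by serum response factor (SRF) with coactivators of the myocardin family, which act through a DNA element called the CArG box.

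Total counts per library ran from 22349142 to 29282494, and each Irf1 siRNA library was shallower than each control library. Irf1 itself had 312, 355 and 362 counts with control siRNA and 125, 140 and 141 with Irf1 siRNA, or 12.0 ± 0.759 CPM (counts scaled to a common library size; SD, n = 3) against 5.58 ± 0.471 CPM. Chondrocyte markers were abundant in both groups: 11 of 11 were tested, 1 of them (Hapln1) was lower with Irf1 siRNA, and their summed level ran from 84145 to 111980 CPM in the control libraries and from 83497 to 111725 CPM in the Irf1 siRNA libraries. Of 10 smooth muscle and mural cell markers 6 had enough counts to be tested, 0 were lower and 2 (Des and Mcam) were higher. The call of Des was lost in 8 of 11 alternatives. The summed level of these markers was 883 to 1002 CPM against 867 to 998 CPM, most of it from Cspg4. Other genes of smooth muscle contraction, among them Acta2, Actg2 and Myl9, were not on this marker list. They are in a list given below, which was drawn up with earlier results of these libraries known. Of its 44 tested genes 28 were lower and 2 were higher, against 12.0% and 10.4% of all tested genes. Myh11, the myosin that defines mature smooth muscle, had 9, 5 and 6 counts with control siRNA and 3, 2 and 3 with Irf1 siRNA. Of 8 fibroblast markers 6 were tested and 2 (Col1a1 and Col1a2) were lower. The summed level was 6727 to 8188 CPM against 4989 to 6040 CPM, most of it from Col1a1 and Col1a2. None of the other tested fibroblast markers passed the threshold: Dcn gave a log2 fold change of 0.02, Pdgfra 0.01, Thy1 −0.30 and Postn −0.26. Of 5 macrophage markers 2 were tested and 1, Cd68, was higher (log2 fold change 0.40, adjusted p = 0.0316, edgeR), a call lost in 5 of 12 alternatives (adjusted p up to 0.150); their summed level was 7.66 to 10.2 CPM against 10.1 to 10.9 CPM, and Adgre1 was at 0 in all 6 libraries. Of 7 skeletal muscle markers 2 were tested and neither passed the threshold (4.90 to 5.31 CPM against 5.77 to 6.32 CPM in sum), with Myog at 0 throughout, and the 1 endothelial marker tested of 4 did not pass it either (0.892 to 1.35 CPM against 0.872 to 1.22 CPM in sum). The part of other cell types in the results below was not tested, and in such bulk RNA fewer cells of a type and less RNA per cell cannot be told apart.

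All 9 genes had enough counts to be tested, and all 9 were lower with Irf1 siRNA at an adjusted p under 0.05 in edgeR's quasi-likelihood test across all 14683 tested genes. In that fit 12.0% of all tested genes were lower at this threshold. The groups did not overlap for any of the 9, with every control library above every Irf1 siRNA library, as was so for 19.5% of all tested genes. The fall was at least 2-fold for Cnn1, Csrp1, Lmod1 and Cnn2 and smaller for the other 5, against 0.824% of tested genes that were called and at least 2-fold lower. The median log2 fold change was −0.85 over the 9 and 0.00 over all tested genes. Because the genes were chosen with this contrast known, nothing is read from these shares. By size of the fitted fall among all 14683 genes, Cnn1 ranked 3, Csrp1 5, Lmod1 6 and Cnn2 17, while Tagln ranked 227, Smtn 636, Tagln2 662, Csrp2 2162 and Cnn3 2508. The sizes just above and below 2-fold were those of Cnn2 (2.82-fold) and Tagln (1.80-fold).

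**Figure D1:**
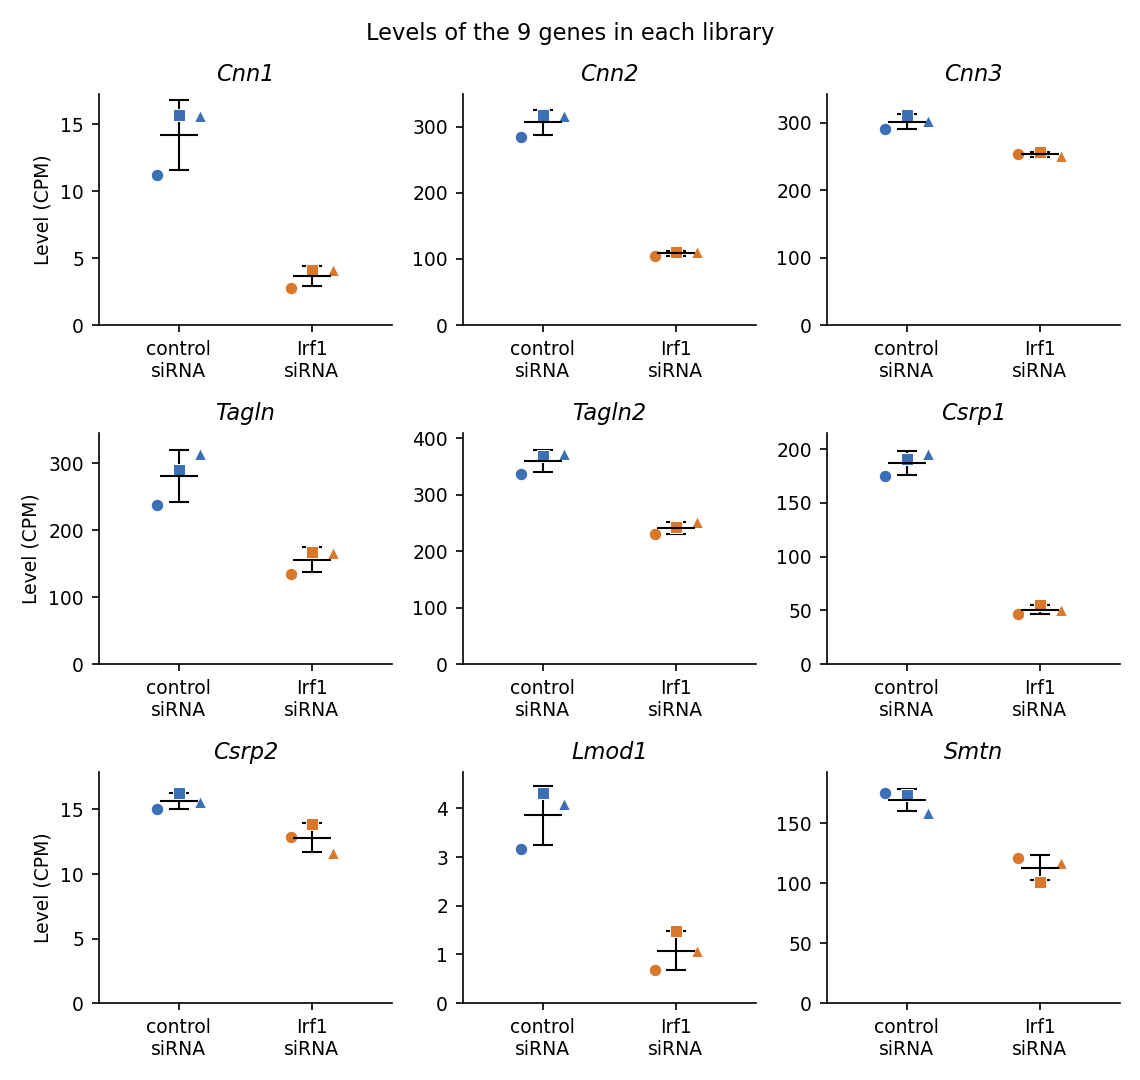
Levels (CPM, linear axis from 0) of the 9 genes in the 3 control siRNA libraries (blue) and the 3 Irf1 siRNA libraries (orange); circles, squares and triangles are replicates 1, 2 and 3, the bar is the mean and the whiskers are the SD. In each panel all blue points lie above all orange points, with the widest relative gap for Csrp1 and the narrowest for Csrp2.

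Among the calponins, Cnn1 and Cnn2 fell steeply and Cnn3 fell slightly. Cnn1 (ENSMUSG00000001349.6), the calponin of smooth muscle, was at 11.2, 15.7 and 15.6 CPM with control siRNA and at 2.80, 4.10 and 4.10 CPM with Irf1 siRNA. Replicate 1 was the low library of each group, and the lowest control library was still 2.72-fold above the highest Irf1 siRNA library. The fit put 26.1% of the transcript in the Irf1 siRNA libraries relative to control (log2 fold change −1.94, SE 0.16). Cnn2 (ENSMUSG00000004665.11), the calponin of many non-muscle cells and the more abundant of this pair, was at 284, 318 and 317 CPM with control siRNA and at 104, 111 and 111 CPM with Irf1 siRNA. Its libraries lay close together within each group and far apart between groups, and 35.5% of the transcript was left (log2 fold change −1.50, SE 0.06). Cnn3 (ENSMUSG00000053931.12), the acidic calponin that is also expressed outside muscle, was at 290.4, 312 and 302 CPM against 253, 257 and 250.0 CPM. These groups were separate by a narrow margin, with the lowest control library 1.13-fold above the highest Irf1 siRNA library. The fitted fall of Cnn3 was 1.19-fold (log2 fold change −0.25, SE 0.05).

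In the control libraries Cnn2 and Cnn3 gave nearly equal counts, and with Irf1 siRNA Cnn3 gave more. The ratio of counts of 2 genes within 1 library does not depend on how libraries are scaled to each other. The log2 ratio of Cnn2 to Cnn3 was −0.03, 0.03 and 0.07 with control siRNA and −1.28, −1.21 and −1.17 with Irf1 siRNA. This is a 2.37-fold shift toward Cnn3 (difference −1.24, SE 0.04). The log2 ratio of Cnn1 to Cnn3 was −4.43 ± 0.24 with control siRNA and −6.13 ± 0.32 with Irf1 siRNA (SD, n = 3), a 3.26-fold shift toward Cnn3. Between the steeper pair the difference was smaller: the log2 ratio of Cnn1 to Cnn2 was −4.67, −4.34 and −4.34 against −5.22, −4.76 and −4.76, a difference of −0.46 (SE 0.19) in which the highest Irf1 siRNA library came close to the lowest control library. Across the 5 pairs of relatives compared in this way, including the pairs of the other families below, no group overlapped with the other, and the exact two-sided permutation test gave p = 0.1 for each, which is the smallest value that 3 against 3 libraries can give.

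Per length, taking CPM per kilobase of the longest coding transcript of each gene, Cnn3 made up 53.0% ± 0.980 of the summed calponin level in the control libraries (SD, n = 3) and 73.0% ± 0.875 in the Irf1 siRNA libraries. Cnn2 made up 44.8% ± 0.700 and then 26.1% ± 0.704. Cnn1 was a small part throughout, at 2.13% ± 0.298 and 0.909% ± 0.177. The summed calponin level was 278 ± 13.9 CPM per kilobase with control siRNA and 169 ± 2.60 with Irf1 siRNA, so the sum was lower while the part of Cnn3 in it was larger.

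**Figure D2:**
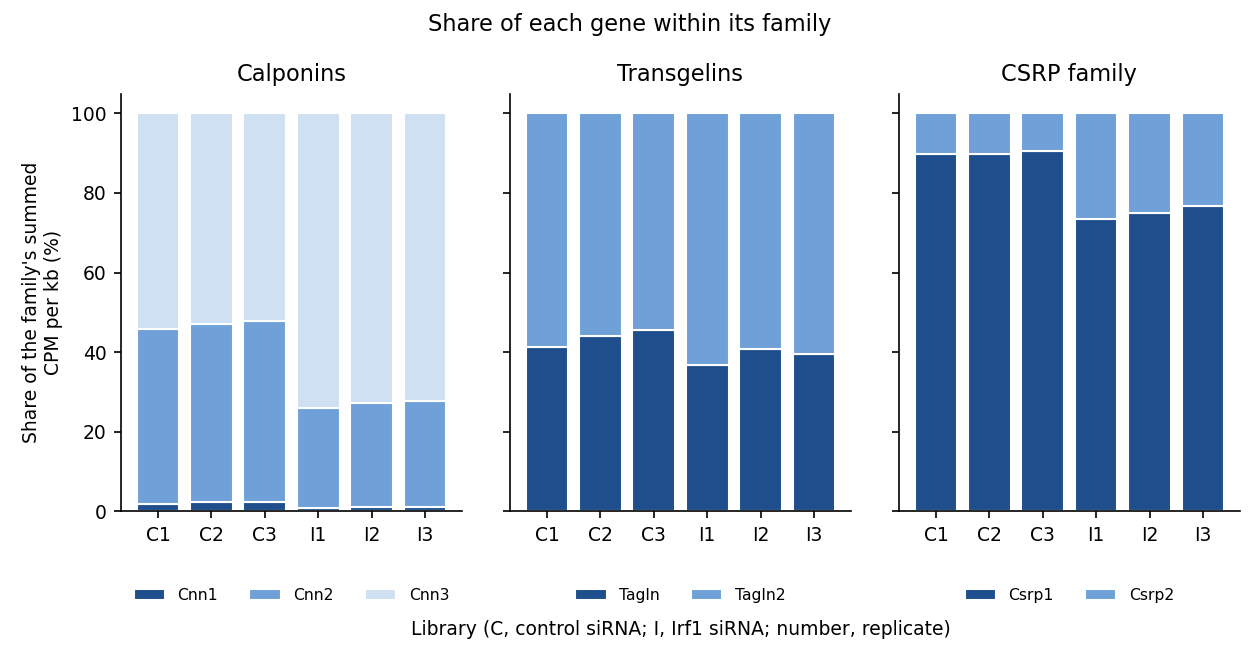
Share (%) of each gene in its family's summed CPM per kilobase, in each of the 6 libraries, for calponins, transgelins and the CSRP family. The share of Cnn3 is about 53.0% in control libraries and 73.0% in Irf1 siRNA libraries, and that of Csrp2 goes from 9.96% to 25.0%, while the transgelin shares move little.

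Both transgelins fell, Tagln more than Tagln2. Tagln (ENSMUSG00000032085.6), also called SM22 alpha and an early marker of smooth muscle, was at 238, 290.1 and 314 CPM with control siRNA and at 134, 168 and 166 CPM with Irf1 siRNA. Its control libraries were widely spread, and the lowest of them was 1.42-fold above the highest Irf1 siRNA library. The fitted fall was 1.80-fold (log2 fold change −0.85, SE 0.11). Tagln2 (ENSMUSG00000026547.16), the transgelin of many non-muscle and immune cells, was at 337, 368 and 373 CPM against 230.2, 242 and 252 CPM. The spread within its groups was small, and the fall was 1.49-fold (log2 fold change −0.57, SE 0.06). The log2 ratio of Tagln to Tagln2 was −0.36 ± 0.13 with control siRNA and −0.64 ± 0.13 with Irf1 siRNA (SD, n = 3), a difference of −0.27 (SE 0.10). Tagln accordingly made up 43.6% ± 2.17 of the summed transgelin level per kilobase and then 39.0% ± 2.12, and the libraries nearest to each other stood at 41.3% with control siRNA and 40.8% with Irf1 siRNA. Tagln shares 48.3% of its 50-base words with the opposite-strand genes Pcsk7 and Gm48529, and no source used here gives the strand setting of the counting. Pcsk7, a proprotein convertase gene, was at 28.0 ± 1.44 CPM and 29.1 ± 0.989 CPM, far below Tagln, and did not pass the threshold (adjusted p = 0.646, edgeR).

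As among the calponins, 1 CSRP gene fell steeply and the other slightly. Csrp1 (ENSMUSG00000026421.15), the LIM adaptor of smooth muscle, was at 175, 191 and 196 CPM with control siRNA and at 46.8, 54.8 and 50.7 CPM with Irf1 siRNA. The gap between the groups was the widest of the 9, at 3.19-fold from the lowest control library to the highest Irf1 siRNA library. The fit left 27.2% of the transcript (log2 fold change −1.88, SE 0.07). Csrp2 (ENSMUSG00000020186.8), a relative known from vascular smooth muscle and from stellate cells of the liver, was at 15.1, 16.3 and 15.6 CPM against 12.9, 13.9 and 11.7 CPM. Its groups were the closest of the 9, with the lowest control library 1.08-fold above the highest Irf1 siRNA library. The fitted fall was 1.22-fold (log2 fold change −0.29, SE 0.09, adjusted p = 0.0308 in edgeR), and this was the call that other settings ended: the adjusted p was 0.0656 in DESeq2, 0.114 without control replicate 2, 0.0601 without control replicate 3, 0.0563 without Irf1 siRNA replicate 1 and 0.146 without Irf1 siRNA replicate 3. The log2 ratio of Csrp1 to Csrp2 was 3.58 ± 0.06 with control siRNA and 1.99 ± 0.13 with Irf1 siRNA (SD, n = 3), a 3.01-fold shift toward Csrp2. Csrp2 made up 9.96% ± 0.381 of the summed level per kilobase of the pair and then 25.0% ± 1.67.

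Lmod1 (ENSMUSG00000048096.8), the leiomodin of smooth muscle, was the least abundant of the 9, with control counts of 89, 122 and 121 and knockdown counts of 15, 41 and 25. These were levels of 3.17, 4.33 and 4.09 CPM against 0.677, 1.49 and 1.07 CPM. Replicate 1 was again the low library of each group, and the groups were separated by a factor of 2.13 at their nearest. The log2 fold change was −1.81 (SE 0.23, the widest error of the 9), and 28.6% of the transcript was left. Smtn (ENSMUSG00000020439.18), which encodes smoothelin, was at 175, 173 and 159 CPM with control siRNA and at 121, 101 and 117 CPM with Irf1 siRNA. Here the low libraries were control replicate 3 and Irf1 siRNA replicate 2. The fall of Smtn was 1.50-fold (log2 fold change −0.58, SE 0.07), about that of Tagln2.

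**Figure D3:**
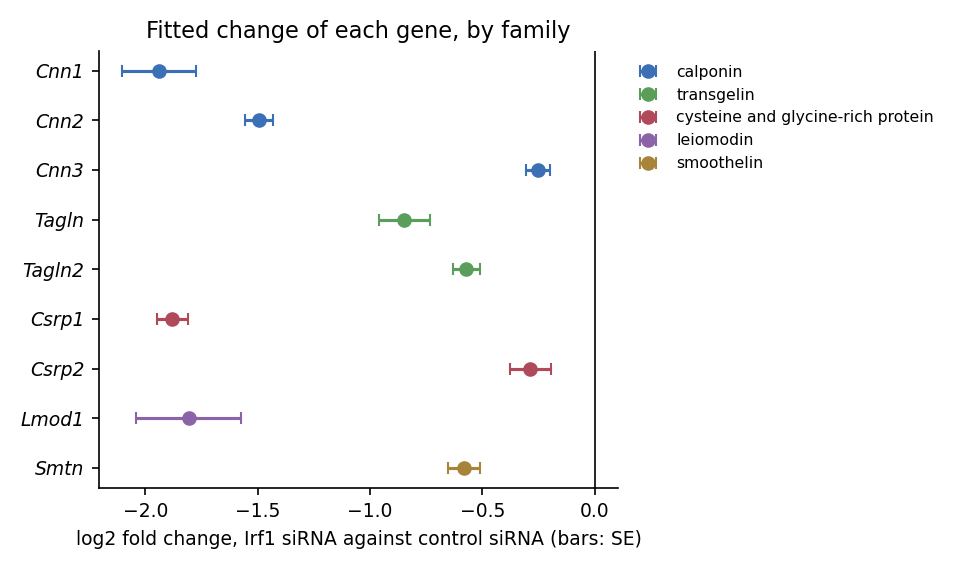
Fitted log2 fold change of each gene, Irf1 siRNA against control siRNA, with its standard error (edgeR), coloured by family. Cnn1, Csrp1, Lmod1 and Cnn2 lie between −1.94 and −1.50, and Cnn3 and Csrp2, the weakest members of their families, lie at −0.25 and −0.29.

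Set against the tissue each gene is best known from, large falls were present in both classes. Of the 6 genes best known from smooth muscle, Cnn1, Csrp1 and Lmod1 were at least 2-fold lower, and Tagln, Smtn and Csrp2 were 1.80-fold, 1.50-fold and 1.22-fold lower. Of the 3 found in many cell types, Cnn2 was 2.82-fold lower, and Tagln2 and Cnn3 were 1.49-fold and 1.19-fold lower.

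Per length in the control libraries, the order of levels was Tagln2 (227 ± 12.4 CPM per kilobase), Tagln (176 ± 24.4), Cnn3 (147 ± 5.31), Cnn2 (125 ± 7.79), Csrp1 (102 ± 6.07), Smtn (49.9 ± 2.68), Csrp2 (11.3 ± 0.456), Cnn1 (5.95 ± 1.09) and Lmod1 (0.978 ± 0.154; SD, n = 3 for each). Among neighbours in that order the libraries overlapped only for Tagln and Cnn3. With Irf1 siRNA the ends of the order were the same, from Tagln2 at 152 ± 6.93 to Lmod1 at 0.273 ± 0.103 CPM per kilobase. In the middle, Cnn3 (124 ± 1.62) stood above Tagln (97.8 ± 12.0), and Smtn (33.3 ± 3.15) stood above Csrp1 (27.8 ± 2.20) with overlapping libraries. Cnn1 and Lmod1, which fell most together with Csrp1, were thus the scarcest transcripts of the set, while Cnn2 and Csrp1 were among the abundant ones.

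Within each group the same library was often the lowest of its group for these genes. How often this was so over all tested genes was not counted, so it is not read as particular to the 9. Control replicate 1 was the lowest control library for 8 of the 9 genes, all but Smtn, and Irf1 siRNA replicate 1 was the lowest of its group for 6 of the 9 (Cnn1, Cnn2, Tagln, Tagln2, Csrp1 and Lmod1). The coefficient of variation over the control libraries was 18.4% for Cnn1, 15.7% for Lmod1 and 13.8% for Tagln, and between 3.61% and 6.26% for the other 6. For all tested genes averaging 5 CPM or more its median was 5.23%. Without control replicate 1 the log2 fold change of Cnn1 was −2.08 and that of Tagln −0.95, and all 9 genes were again called lower.

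The families and their relatives hold further genes, some of which the chondrocytes barely expressed. Csrp3 and Lmod3, which belong to striated muscle, had 0 to 2 counts in each library, as had Smtnl1, and Lmod2 had 0 in all 6. Smtnl2, a smoothelin-like gene, was lower with Irf1 siRNA, at 6.92 ± 1.11 against 4.70 ± 0.589 CPM (SD, n = 3), a log2 fold change of −0.56 (SE 0.14; adjusted p = 0.0104 in edgeR). Tagln3, the neuronal transgelin, had 3, 12 and 10 counts against 12, 13 and 12 and did not pass the threshold (adjusted p = 0.214, edgeR). Of the 4 tropomodulins, relatives of the leiomodins that cap actin filaments at the pointed end, 0 were lower and 1 was higher: Tmod3, the most abundant, was at 101 ± 9.91 and 102 ± 9.38 CPM (log2 fold change 0.01, SE 0.08), and Tmod1 rose from 0.628 ± 0.230 to 1.38 ± 0.261 CPM, a log2 fold change of 1.14 (SE 0.30; adjusted p = 0.0121 in edgeR). Tmod2 (log2 fold change −0.18) and Tmod4 (0.25) did not pass the threshold.

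Of a list of 46 other genes of smooth muscle contraction and of SRF and its coactivators, 44 were tested, 28 were lower, 2 were higher and 14 did not pass the threshold. This list too was drawn up with earlier results of these libraries known, Actg2 and Acta2 among them. Over all tested genes 12.0% were lower and 10.4% were higher. The median log2 fold change of the list was −0.31, against 0.00 over all tested genes. The largest falls at a mean of at least 5 CPM were those of Actg2, the enteric smooth muscle actin, from 19.8 ± 2.53 to 6.42 ± 1.11 CPM (log2 fold change −1.62, SE 0.13), and Acta2, the vascular smooth muscle actin, from 684 ± 120 to 276 ± 35.4 CPM (log2 fold change −1.31, SE 0.15). They were followed by Myl9, a regulatory myosin light chain (−1.15), Ankrd1 (−0.91), Nexn, an actin-binding protein of contractile cells (−0.81), and Tgfb1i1, the focal adhesion adaptor Hic-5 (−0.75). Among the broadly expressed cytoskeletal genes Flna, Tpm1, Tpm4, Myh9 and Actg1 were lower by 0.45 to 0.54 on the log2 scale. Others moved less. Myl6 (−0.24) and Actn4 (−0.19) were called lower. Actb (−0.13, adjusted p = 0.150, edgeR), Myh10 (−0.12), Zyx (−0.15), Pdlim1 (−0.10) and Pdlim5 (−0.13) did not pass the threshold. The 2 higher genes were Fhl1, a LIM protein (log2 fold change 0.24, adjusted p = 0.0169), and the intermediate filament gene Des (0.43, adjusted p = 0.0446, both in edgeR), which encodes desmin. The call of Des was lost in DESeq2 (adjusted p = 0.131), with no filter (0.0786) and when any single library was left out (0.0593 to 0.145), and Des was not tested with only genes at a mean of at least 5 CPM. That of Fhl1 was lost without control replicate 1 (adjusted p = 0.0974) and without Irf1 siRNA replicate 3 (0.0634).

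Of the regulators, Srf was at 40.4 ± 1.25 CPM in control and 35.0 ± 3.71 CPM in knockdown libraries (SD, n = 3; log2 fold change −0.21, SE 0.08), which did not pass the threshold (adjusted p = 0.0605, edgeR). Mrtfa, a coactivator that monomeric actin holds in the cytoplasm, gave −0.05 (SE 0.06, adjusted p = 0.597 in edgeR). Its relative Mrtfb was lower by a small amount, from 41.7 ± 1.34 to 34.5 ± 2.62 CPM, which is −0.27 on the log2 scale (SE 0.07; adjusted p = 0.00973 in edgeR). Myocd, which encodes myocardin, was scarce and also lower, with 28, 37 and 43 counts against 10, 17 and 9 (log2 fold change −1.35, SE 0.30, adjusted p = 0.00411 in edgeR). Ccn1, Ccn2 and Thbs1, which SRF shares with other factors, were not all lower. Ccn1 gave −0.25 and was called, Ccn2 gave 0.08 (adjusted p = 0.370) and Thbs1 −0.07 (adjusted p = 0.534, both in edgeR). They were named after their values were seen, and other genes of the list, such as Ankrd1 (−0.91), fell more.

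**Figure D4:**
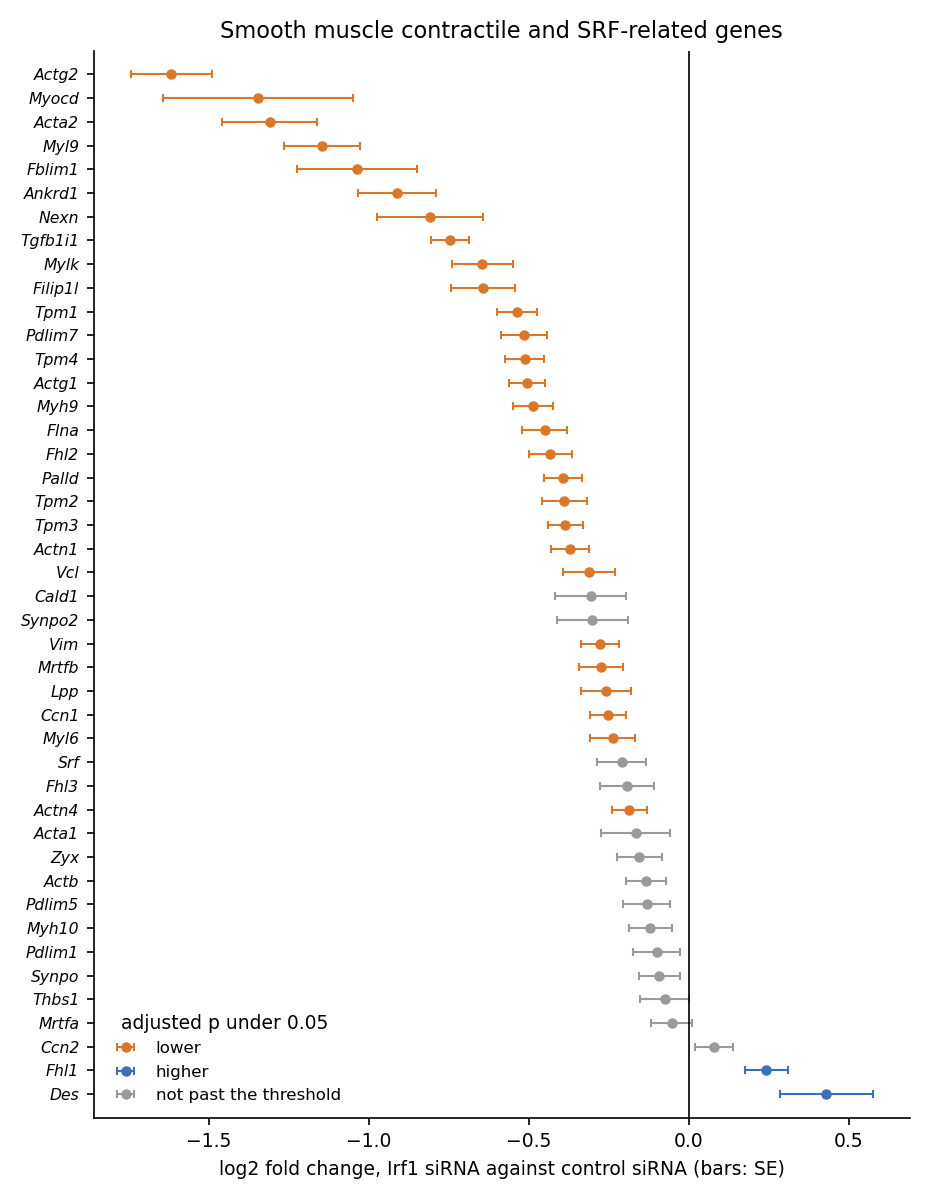
Fitted log2 fold change with its standard error (edgeR) of the 44 tested genes of smooth muscle contraction and SRF signalling, sorted by value; orange and blue mark genes lower and higher at an adjusted p under 0.05, grey the rest. The 28 lower genes run from Actg2 at −1.62 to Actn4 at −0.19, and Fhl1 and Des are the 2 higher genes.

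Profiles over the 6 libraries were compared for 10458 genes averaging 5 CPM or more, by the distance between log2 CPM values centred on each gene's mean. The 9 genes themselves and genes with clone or predicted names were left out before the nearest were taken. Of the rest, those most like Cnn1 were Actg2, Mmgt1, Atp5pb, Cmtm6 and Cdkl2. Actg2 was nearest, with a correlation of 0.999 over the 6 libraries, a value set mostly by the difference between the groups. For Csrp1 the nearest were Mmgt1, Atp5pb, Actg2, Cmtm6 and Ppib, and for Tagln they were Lurap1l, Epb41l4a, Tspan12, Dock4 and Tpp2. Cnn1 and Csrp1 shared 4 of their 5 nearest genes, and Tagln shared none with either. This distance follows mostly the size of the fall on which the 9 genes were chosen: the nearest genes of Cnn1 and Csrp1 had log2 fold changes of −1.38 to −2.09 and those of Tagln −0.70 to −0.88, so the shared count is a description and no separate likeness.

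The start sites of the genes were searched for the CArG box, on windows from 250 bases before to 50 after each annotated start (RefSeq, GRCm38.p6, which is not the authors' build). Windows were found for 7 of the 9 genes, all but Tagln and Csrp2. Of all 32851 such windows 1.63% held an exact CArG box, and 21.1% held a match with at most 1 mismatch. The pattern, though not each single box, reads the same on both strands. An exact box was present in 1 of the 7 genes, Cnn2, from 56 to 47 bases before the start. Lmod1 held a pair of matches with 1 mismatch, from 189 to 180 and from 164 to 155 bases before the start. No match at either stringency was found in these windows for Cnn1, Cnn3, Csrp1 (2 windows), Smtn or Tagln2. The windows of Cnn2 (chr10:79988350-79988649, plus strand) and Lmod1 (chr1:135324563-135324862, plus strand) are printed because they hold those matches, which are in capitals; all lie upstream of the start site, outside the transcript.

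Cnn2: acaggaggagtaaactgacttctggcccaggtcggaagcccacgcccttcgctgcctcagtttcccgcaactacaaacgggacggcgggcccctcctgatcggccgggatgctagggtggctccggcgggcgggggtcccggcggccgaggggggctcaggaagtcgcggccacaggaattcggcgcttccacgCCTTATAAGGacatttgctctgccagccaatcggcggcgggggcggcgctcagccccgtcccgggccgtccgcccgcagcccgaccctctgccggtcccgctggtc

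Lmod1: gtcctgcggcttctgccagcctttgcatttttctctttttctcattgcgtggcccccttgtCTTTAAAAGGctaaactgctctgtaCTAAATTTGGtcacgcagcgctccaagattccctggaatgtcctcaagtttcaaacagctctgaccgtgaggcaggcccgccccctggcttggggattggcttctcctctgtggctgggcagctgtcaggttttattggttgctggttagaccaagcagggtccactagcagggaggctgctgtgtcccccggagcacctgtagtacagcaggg

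The promoter windows differed in base composition. That of Cnn3 had 78.3% G and C and 33 CpG dinucleotides and that of Cnn2 had 70.7% and 33. Those of Tagln2 (61.3% and 18), Csrp1 at its downstream start (59.7% and 17), Cnn1 (59.3% and 6), Smtn (56.3% and 11), Lmod1 (55% and 7) and Csrp1 at its upstream start (50.3% and 6) lay below these.

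In these libraries lower genes had earlier been seen to hold 1 of 4 short words in the 3′ untranslated region: ACTGATC or CTGATCA, and GCTATCT or CTATCTA. The words were chosen on falls in this same contrast, so their presence here is a description. In the longest coding transcript of GENCODE M21 (GRCm38), searched on the transcript's strand, 4 of the 9 genes held such a word in the 3′ untranslated region, against 20.8% of 12798 tested genes with one annotated. They were Cnn2, Cnn3, Csrp1 and Lmod1, each with 1 site, shown with the word in capitals and its neighbouring bases in lower case.

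Cnn2: gacagatctgtGCTATCTAtgctccttcct

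Cnn3: tcgttgaagatCTATCTAtgcattttttt

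Csrp1: tgatttatcatCTGATCAataaagcaatt

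Lmod1: tcccaacccgtCTATCTActgctcaagta

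The site of Cnn2 joins GCTATCT and CTATCTA and starts at base 170 of a 3′ untranslated region of 1448 bases. That of Cnn3 starts at base 282 of 781, that of Lmod1 at base 1594 of 1957, and that of Csrp1, the only 1 with CTGATCA, at base 1085 of 1112. The genes with a word had falls of 2.82-fold (Cnn2), 1.19-fold (Cnn3), 3.68-fold (Csrp1) and 3.50-fold (Lmod1). Those without one in the 3′ untranslated region had falls of 3.84-fold (Cnn1), 1.80-fold (Tagln), 1.49-fold (Tagln2), 1.22-fold (Csrp2) and 1.50-fold (Smtn, which held a word in its coding sequence). Falls of at least 2-fold were those of Cnn2, Csrp1 and Lmod1 among the genes with a word and of Cnn1 among those without. The part of these words in the falls was not tested.

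No 50-base word was shared among the 9 genes, and most words of each gene were found in no other gene. Tagln shared the most, 48.3%, with the opposite-strand genes Pcsk7 and Gm48529, as given above. Whether this overlap affected the counted level of Tagln, and so its share and its place per length, was not tested. No 50-base word of Cnn1, Cnn2, Csrp1, Csrp2 or Lmod1 was found in a transcript of another gene, on either strand. Cnn3 shared 16.4% of its 50-base words with the predicted genes Gm17936 and Gm4815, of which the second was at 3.85 ± 0.485 CPM with control siRNA, far below Cnn3, and 14.2% with the opposite-strand gene Gm42928, which had 9 to 15 counts in each library. Tagln2 shared 0.781% of such words with transcripts of other genes in the same orientation and 0.716% in the opposite orientation. For Tagln2 this shows no overlap of genes in the genome, because only transcript sequences were compared. Smtn shared 13.2% with the opposite-strand gene Gm11946, which had 1 to 8 counts in each library.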

How the data were processed

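RNA-seq was made from total RNA with a stranded kit that selects mRNA, per the labels' protocols. The authors deposited raw read counts per gene, 1 table per library, not normalised. Per the submitters' processing notes, FastQC, Trimmomatic 0.39 and STAR were used on build GRCm39; no source used here gives the counting tool, annotation release or strand setting. Total counts were 22349142 to 29282494 per library, and no pair of libraries of a group was alike within sampling noise (chi-square per degree of freedom 5.76 to 16.6), so all 6 were used.

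The counts were fitted with edgeR 4.0.16 (R 4.3.3): filterByExpr kept 14683 genes with at least 99.9% of the counts of each library, TMM scaling, robust quasi-likelihood fit on the group, F test (two-sided), Benjamini-Hochberg adjustment over all tested genes, threshold 0.05. Standard errors are the absolute log2 fold change over the square root of F. Levels are CPM, as mean ± SD. The fit was tested on simulated data. DESeq2 1.42.0, other scalings and filters, a replicate block and leaving out each library were the alternatives. The members, the lists and the rules for naming genes were chosen with earlier results of these data known. The rule names the 9 genes, their other relatives, up to 6 falls and 6 rises of the list at a mean of at least 5 CPM with 4 regulators, and the 5 genes most like Cnn1, Csrp1 and Tagln; other genes of the list, Smtnl2 and the overlapping genes were named after their values were seen. Transcript lengths and 3′ untranslated regions came from GENCODE M21, matched by gene identifier, and promoter windows from RefSeq.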

Additional observations from a re-analysis of the deposited data

How the results depend on the processing

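The count of 9 lower genes was 8 or 9 under every alternative run, and no log2 fold change of the 9 changed sign. It was 8 in DESeq2 and when control replicate 2, control replicate 3, Irf1 siRNA replicate 1 or Irf1 siRNA replicate 3 was left out, each time through Csrp2, and 8 with only genes at a mean of at least 5 CPM, which leaves Lmod1 untested. The log2 fold changes ranged from −2.08 to −1.79 for Cnn1, −2.13 to −1.58 for Lmod1, −1.94 to −1.83 for Csrp1, −1.55 to −1.47 for Cnn2 and −0.28 to −0.23 for Cnn3. The paralog ratios moved by less than their spread with a pseudocount of 1 and without any single library. Of the list of 44 contraction and SRF genes, 25 to 32 were lower. The 2 higher genes became 1 in DESeq2, 1 with no filter and 1 with genes at a mean of at least 5 CPM, and 0 to 1 when a library was left out (0 for control replicate 1 and for Irf1 siRNA replicate 3); Des lost its call or went untested in each of these settings and Fhl1 in those with 0, and the cause was not tested. Scaling moved the median of all genes by at most 0.03 on the log2 scale. Whether replicate numbers pair the libraries could not be settled with 3 libraries per group. Deviations from the group means correlated at 0.195, −0.045 and 0.052 for replicates 1, 2 and 3, and not every library correlated best with its own number. With the replicate number as a block, 9 genes were lower, 31 of the list were lower and 2 were higher, and 3728 genes were called in place of 3289. Depth limits Lmod1 most, with 81 counts over the Irf1 siRNA libraries.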
